A study of Papio anubis and Macaca mulatta with 6 samples.

Results

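The BCL2 family genes described here are 10 regulators of mitochondrial apoptosis, BIK, HRK, PMAIP1, BBC3, BCL2L11, BID, BAX, BCL2, BCL2L1 and MCL1, followed across germ and somatic cells of the immature primate testis. They were selected on their levels in these same cells, with BIK and PMAIP1 chosen for germ cells and HRK for Sertoli cells, so their levels in those 2 cell types are given as a description and without a test. Of 34178 genes listed for the baboon, 9 are members and BAX was not analysed here, and of 21356 genes listed for the rhesus monkey, 9 are members and HRK was not analysed here.

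Mitochondrial apoptosis is decided among 3 kinds of BCL2 family protein. The BH3-only proteins sense stress or loss of survival signals, the antiapoptotic proteins bind and hold them, and the effectors, once free, open the outer mitochondrial membrane and let cytochrome c reach the caspases. In the testis this pathway is known for removing surplus and damaged germ cells while Sertoli cells, which nurse them, persist.

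Single testis cells of 2 untreated olive baboons and 2 untreated rhesus monkeys, all immature, were measured as 6 libraries with 10x Genomics 3′ reagents, which counts each captured RNA molecule once by its unique molecular identifier (UMI). Baboon 1 gave libraries 1A and 1B, baboon 2 one library, rhesus 1 one library, and rhesus 2 libraries 2A and 2B. The baboon 2 library was made with chemistry version 3 and the others with version 2, so that in the baboon the chemistry and the animal cannot be told apart. The testes came from necropsies and were digested in 2 enzyme steps, the first of which was washed away with interstitial cells, and the ages, from newborn to 26 months, were not used because the sources place them on different animals.

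Barcodes with at least 1000 UMIs and 200 genes, 21692 of the baboons and 22632 of the rhesus monkeys, were taken as cells and put in a class where at least 3 distinct markers of 1 cell type, and of no other, exceeded free RNA. For the Sertoli list only 0.25 of a cell's UMIs was taken as free RNA, and for the other lists all of them. This gave 182 and 241 germ-like and 9331 and 5342 Sertoli-like cells in the baboon and the rhesus monkey. In the same order it gave 3388 and 6724 stroma-like and 236 and 529 endothelial-like cells. With all UMIs taken as free RNA for the Sertoli list too, Sertoli-like cells fell to 2932 and 3398. INHA, a Sertoli gene outside the lists, was at 722 and 473 UMIs per 1000000 UMIs of the class (CPM) in the Sertoli-like cells of the baboons against 33.5 and 19.8 CPM in their germ-like cells, and at 1995 and 1812 against 150.5 and 41.9 CPM in the rhesus monkeys. Libraries of the same chemistry shared 37 to 136 cell barcodes, at most 1.58% of the cells of a library. Library totals ran from 16875294 to 49803025 UMIs, and the median germ-like cell held 9449 to 12656 UMIs in the baboon libraries and 3228 to 15591 in the rhesus libraries, against 2585 to 6208 and 1938 to 1972 in Sertoli-like cells. Intervals on CPM are exact Poisson and those on shares of cells exact Clopper-Pearson, both at 95% and for counting error only, and n is 2 animals for each mean ± SD.

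All 10 members carry the short BH3 segment through which the family's proteins bind each other, and its coding bases are shown because the BH3-only members share little else. They were read 5′ to 3′ from the RefSeq transcripts of the rhesus monkey (build Mmul_10), as the 27 coding bases that start at the leucine of the pattern leucine, any 3 residues, a small residue, aspartate; capitals mark the codons of the leucine, the small residue and the aspartate. The pattern was found once in each of the 10 coding sequences except BID, where the first of 2 matches is left out here.
BIK, chr10:8359921-8359947, minus strand: CTGgcctgcatcGGGGACgagatggat
HRK, chr11:116620296-116620322, minus strand: CTCaaggcgcttGGCGACgagctgcac
PMAIP1, chr18:20312151-20312177, minus strand: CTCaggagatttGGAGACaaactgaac
BBC3, chr19:47247728-47247754, minus strand: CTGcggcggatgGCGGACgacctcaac
BCL2L11, chr13:14350303-14350329, plus strand: TTGcggcgaatcGGAGACgagtttaac
BID, chr10:34270702-34270728, plus strand: CTCgcccaggtcGGGGACagcatggac
BAX, chr19:48937640-48937666, plus strand: CTCaagcgcatcGGGGACgaactggac
BCL2, chr18:16793474-16793500, plus strand: CTCcgccaggccGGTGACgacttctcc
BCL2L1, chr10:66965763-66965789, minus strand: CTGagggaggcaGGCGACgagtttgaa
MCL1, chr1:100565536-100565562, plus strand: TTAcgacgggttGGGGATggcgtgcag
The glycine is replaced by alanine in BBC3 alone, while the leucine and the aspartate were required by the pattern. In the baboon build (Panubis1.0) BIK lies at chr16:7530003-7552042, PMAIP1 at chr19:52390540-52394258 and HRK at chr9:111188249-111212545.

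PMAIP1 encodes NOXA, a BH3-only protein that neutralises MCL1. In germ-like cells it was at 26.2, 35.7 and 89.0 CPM in libraries 1A, 1B and baboon 2, and at 108, 136 and 250 CPM in libraries rhesus 1, 2A and 2B. In Sertoli-like cells the same libraries held 0, 0 and 0.217 CPM, and 0.820, 0.577 and 0.891 CPM. The groups do not overlap in either species, and stroma-like cells were as low as Sertoli-like cells, at 0 to 0.980 CPM in every library. By animal, germ-like PMAIP1 averaged 59.1 ± 42.2 CPM (SD, n = 2) in the baboon and 148 ± 57.0 CPM in the rhesus monkey, which in the rhesus monkey was 191-fold the Sertoli-like mean, and 131-fold and 257-fold in rhesus 1 and 2 by themselves. Germ-like cells of baboon 1 were at least 193-fold higher than its Sertoli-like cells, which held 0 UMIs and were set at a floor of 3 counts in that animal, and those of baboon 2 were 409-fold higher, against 7 Sertoli-like UMIs.

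Germ-like cells are deep, so shares of cells were also taken with every cell thinned to 1000 UMIs. Before thinning, a PMAIP1 UMI was found in 23 of 93 (24.7%) and 41 of 89 (46.1%) germ-like cells of baboons 1 and 2 and in 66 of 212 (31.1%) and 20 of 29 (69.0%) of rhesus 1 and 2. At equal depth the shares were 3.23% (0.670 to 9.14), 14.6% (8.01 to 23.7), 8.96% (5.48 to 13.6) and 6.90% (0.846 to 22.8). Sertoli-like cells of baboon 1 had a PMAIP1 UMI in 0 of 6160 cells at equal depth, which allows a share of up to 0.0487%. Those of baboon 2 had one in 0 of 3171, which allows up to 0.0946%, and in rhesus 1 and 2 the Sertoli-like share was 0.0870% and 0.0329%. The germ-like interval lay above the Sertoli-like one in all 4 animals. PMAIP1 was chosen for germ cells, so this order is a description and not a test. Free RNA, read from barcodes with 10 to 100 UMIs, held 0 to 8.66 CPM of PMAIP1. The UMIs were unevenly spread, since 1 cell held 14 of 35 PMAIP1 UMIs in library 2A and 1 cell held 16 of 55 in library 2B, whereas no germ-like cell of the other libraries held more than 6.

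**Figure D1:**
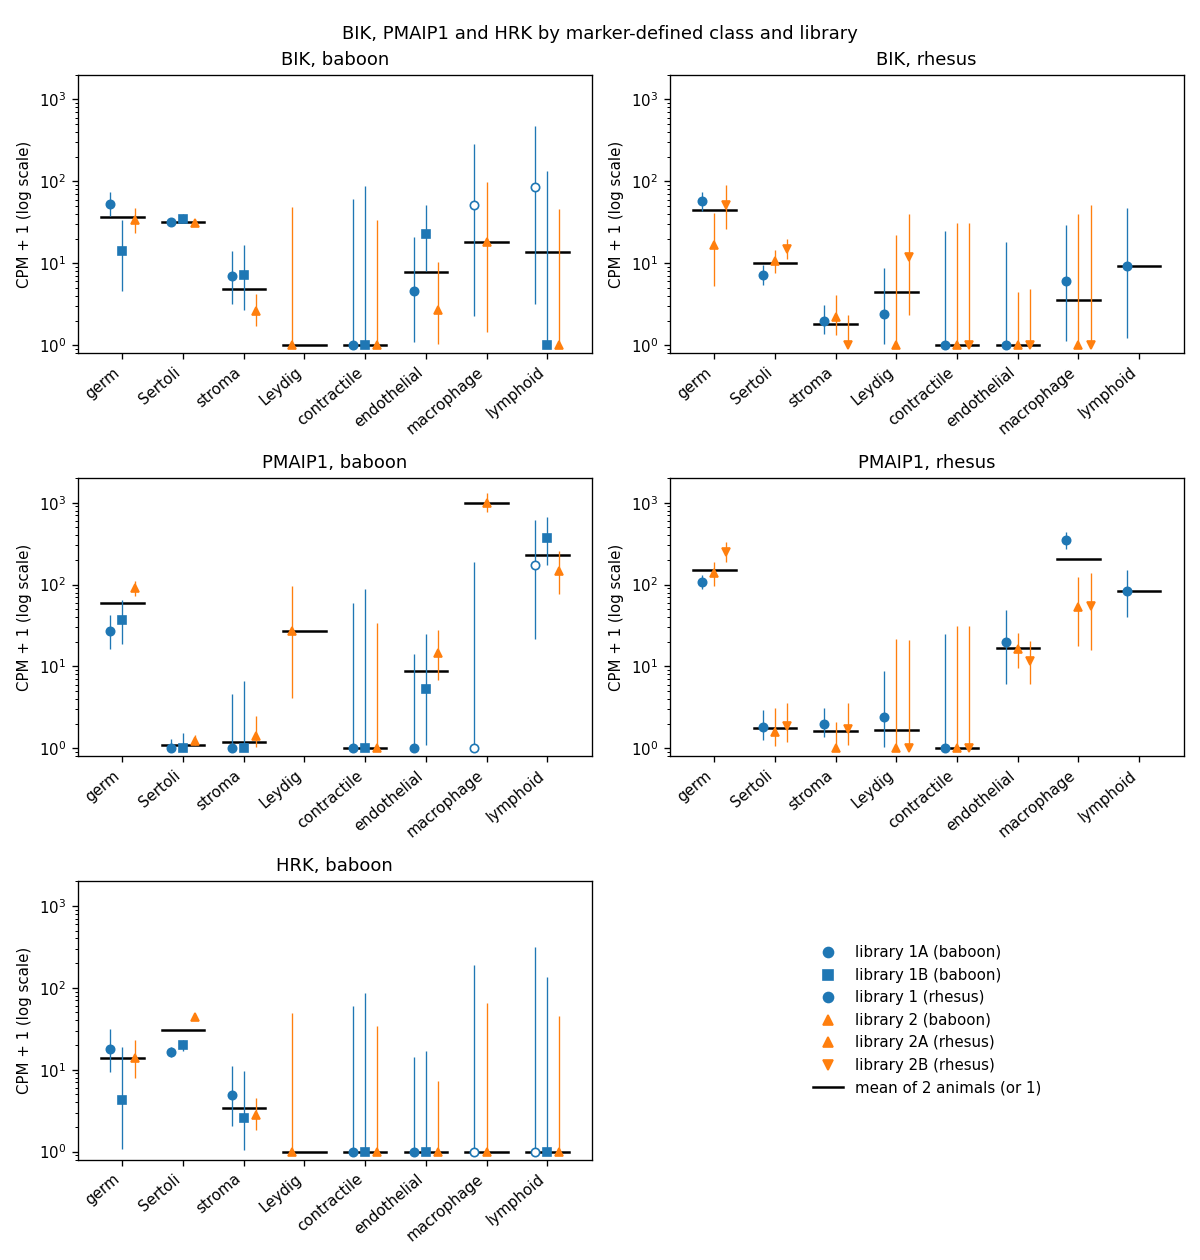
Level of BIK, PMAIP1 and HRK (CPM + 1, log scale) in each marker-defined class, 1 point per library with its exact Poisson interval, open points for classes under 10 cells, and a bar for the mean of the animals that have at least 10 cells. Where a class had at least 10 cells, PMAIP1 is high in germ-like, macrophage-like and lymphoid-like cells. It is near 0 in Sertoli-like and stroma-like cells of both species. BIK levels of Sertoli-like and germ-like cells overlap in the baboon. HRK is at 0 UMIs outside germ-like, Sertoli-like and stroma-like cells, but in the small classes 0 UMIs do not exclude the Sertoli-like level of baboon 1.

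The germ line was not the only place where PMAIP1 was found. Macrophage-like cells of baboon 2 held 1001 CPM (760 to 1294), 58 UMIs in 8 of 18 cells with 18 of them in a single cell, and those of rhesus 1 and 2 held 350 and 53.1 CPM in 81 and 47 cells. Lymphoid-like cells held 306 and 146 CPM in 17 and 29 cells of baboons 1 and 2 and 82.4 CPM in 54 cells of rhesus 1. Germ-like cells held 29.3 and 89.0 CPM in baboons 1 and 2 and 108 and 188 CPM in rhesus 1 and 2. By value lymphoid-like cells were thus above germ-like cells in both baboons, and macrophage-like cells in baboon 2 and rhesus 1. Macrophage-like cells of rhesus 2 and lymphoid-like cells of rhesus 1 were below their germ-like cells. The lymphoid-like levels rest on 24 UMIs of the baboons together and 10 of rhesus 1, so their place in baboon 2 and rhesus 1 is uncertain. The macrophage-like and germ-like ranges of the 2 rhesus monkeys overlap. Summed germ cell markers were at 1242 CPM in the macrophage-like cells of baboon 2 against 30.4 and 11.8 CPM in those of rhesus 1 and 2; their part in the PMAIP1 level of baboon 2 was not tested.

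BIK encodes a BH3-only protein of the endoplasmic reticulum that binds BCL2 and BCL2L1. In the rhesus monkey germ-like cells held 55.9, 15.5 and 50.04 CPM in libraries 1, 2A and 2B, and Sertoli-like cells 6.23, 9.52 and 14.0 CPM. Every library showed more in germ-like cells, by 4.87-fold in the mean of the animals and by 8.97-fold and 2.68-fold in rhesus 1 and 2, although library 2A rests on 4 UMIs in 13 cells. In the baboon germ-like cells held 52.5, 13.0 and 32.6 CPM in libraries 1A, 1B and baboon 2, and Sertoli-like cells 30.8, 34.0 and 29.7 CPM. Library 1B runs the other way, the baboon animals' intervals overlap (39.7 CPM, 28.1 to 54.5, against 31.9, 29.5 to 34.5, in baboon 1, and 32.6, 22.5 to 45.8, against 29.7, 27.9 to 31.7, in baboon 2), and the log2 difference was 0.23 on CPM but -0.35 after TMM scaling and -0.25 with size factors of the RLE kind, so no order of germ-like and Sertoli-like BIK can be given for the baboon.

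At equal depth BIK was found in 5.38% (1.77 to 12.1) and 3.37% (0.701 to 9.54) of germ-like cells of baboons 1 and 2, against 3.12% and 2.74% of Sertoli-like cells, and in 4.25% (1.96 to 7.91) and 3.45% (0.0873 to 17.8) of germ-like cells of rhesus 1 and 2, against 0.826% and 1.08%. The unthinned germ-like shares were 23.7%, 22.5%, 16.5% and 31.0%, and those of Sertoli-like cells 9.32%, 22.5%, 1.65% and 2.60%. Only rhesus 1 has a germ-like interval that lies above the Sertoli-like one, which ends at 1.29%. BIK was much lower in stroma-like cells, with 6.03 and 1.63 CPM in baboons 1 and 2 and 0.980 and 0.652 CPM in rhesus 1 and 2, and no BIK UMI was seen in the endothelial-like cells of either rhesus monkey, which allows up to 14.1 and 1.501 CPM. Free RNA held 30.7 to 41.1 CPM of BIK in the baboon libraries and 5.51 to 11.0 CPM in the rhesus libraries, close to the Sertoli-like level in both species and above the germ-like level of library 1B.

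**Figure D2:**
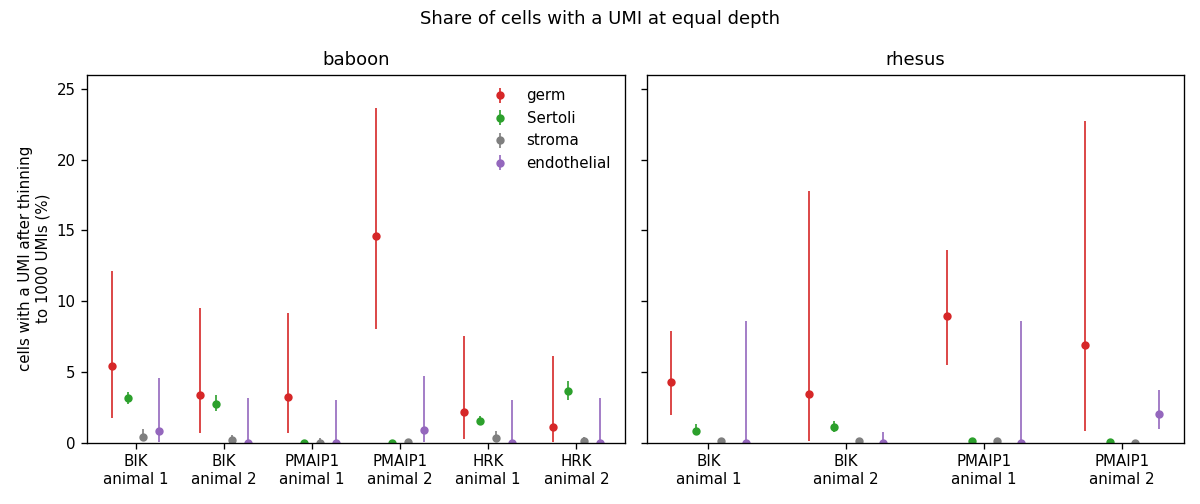
Share of cells (%) with at least 1 UMI of BIK, PMAIP1 or HRK after every cell was thinned to 1000 UMIs, by animal and class, with exact Clopper-Pearson intervals. PMAIP1 reaches 14.6% of germ-like cells in baboon 2 and stays under 0.1% of Sertoli-like cells in all 4 animals, while the BIK shares of germ-like and Sertoli-like baboon cells overlap.

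BIK and PMAIP1 were also looked for in the same germ-like cells. Both had a UMI in 3 of 67, 2 of 26 and 11 of 89 germ-like cells of libraries 1A, 1B and baboon 2 and in 9 of 212, 2 of 13 and 3 of 16 of libraries rhesus 1, 2A and 2B. BIK without PMAIP1 was seen in 15, 2, 9, 26, 1 and 3 of these cells, and PMAIP1 without BIK in 11, 7, 30, 57, 7 and 8. Cells with both genes were fewer than cells with PMAIP1 alone in all 6 libraries. That order would follow for unrelated genes too, since BIK was found in a minority of the germ-like cells of every library. It therefore does not tell whether the genes keep to separate cells. At these counts a missing UMI also does not show that a cell lacked the RNA.

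HRK encodes Harakiri, a BH3-only protein that binds BCL2 and BCL2L1, and it was measured in the baboon. Sertoli-like cells held 15.5, 18.8 and 42.8 CPM in libraries 1A, 1B and baboon 2, and stroma-like cells 3.97, 1.54 and 1.83 CPM. Sertoli-like cells were higher in every library, by 12.3-fold in the mean of the animals (29.7 ± 18.4 against 2.42 ± 0.837 CPM) but by 5.55-fold in baboon 1 and 23.4-fold in baboon 2, and the interval of baboon 2 lay above that of baboon 1, at 42.8 (40.5 to 45.1) against 16.7 CPM (15.0 to 18.6). Germ-like cells held 17.0, 3.24 and 12.9 CPM, with an interval that overlapped the Sertoli-like one in baboon 1 (12.5 CPM, 6.48 to 21.9) and lay below it in baboon 2 (12.9 CPM, 6.84 to 22.0). Summed Sertoli markers were at 447 and 335 CPM in the germ-like cells of baboons 1 and 2, and their part in the HRK level there was not tested.

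No HRK UMI was seen in endothelial-like, contractile-like, macrophage-like or lymphoid-like baboon cells. For endothelial-like cells this allows up to 5.88 and 5.07 CPM in baboons 1 and 2. Contractile-like, macrophage-like and lymphoid-like cells numbered only 78, 26 and 46. Their 0 UMIs do not exclude the Sertoli-like level of baboon 1. At equal depth HRK was found in 1.51% (1.22 to 1.85) and 3.66% (3.03 to 4.37) of Sertoli-like cells and in 0.286% and 0.128% of stroma-like cells, and unthinned in 4.72% and 26.8% of Sertoli-like cells. Free RNA held 13.3, 13.4 and 22.3 CPM of HRK in libraries 1A, 1B and baboon 2. By value the free RNA level thus lies below the Sertoli-like level and above the stroma-like level in every baboon library. Its intervals in libraries 1A and 1B (9.63 to 17.9 and 8.06 to 20.9 CPM) hold the Sertoli-like level of the same library, so in baboon 1 the 2 levels cannot be told apart. In baboon 2 the free RNA interval (14.3 to 33.2 CPM) lay below the Sertoli-like level.

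The genes whose level followed each of these 3 members most closely were taken by Pearson's r of log2(CPM + 1) over 14 class sums of the baboon and 15 of the rhesus monkey, a description over sums that share libraries and depth. For HRK they were LCN10 (r = 0.98), JSRP1 (0.98) and 3 uncharacterised loci (0.97 to 0.98). For PMAIP1 they were MYO1F (0.96), LOC101003176 (0.95), ARPC3 (0.91), CDC42SE2 (0.90) and SIPA1 (0.89) in the baboon and GPSM3 (0.93), CSK (0.91), ARHGAP45 (0.86), HMGA1 (0.86) and APBB1IP (0.86) in the rhesus monkey. For BIK they were WDR37 (0.90), TMEM41A (0.89), AP5S1 (0.89), PHF13 (0.87) and COPE (0.87) in the baboon. In the rhesus monkey they were CDKN3 (0.92), TDP2 (0.91), GHITM (0.91), IMP4 (0.90) and BOP1 (0.89). For neither PMAIP1 nor BIK did the 5 names of the 2 species meet. That is likely for 5 names among 13401 and 10371 genes, so nothing about the species is read from it.

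BCL2L11 (BIM) and BID are BH3-only proteins that can activate the effectors directly. BCL2L11 was at 7.71, 19.5 and 26.7 CPM in germ-like cells of libraries 1A, 1B and baboon 2 and at 16.3, 19.4 and 18.2 CPM in those of rhesus 1, 2A and 2B, against 1.82, 2.69 and 4.13 CPM and 1.31, 1.73 and 1.19 CPM in Sertoli-like cells. Germ-like cells were above Sertoli-like cells in all 6 libraries, on 38 and 25 germ-like UMIs. By the mean of the animals they were 6.10-fold higher in the baboon and 12.6-fold higher in the rhesus monkey. The log2 difference was 2.61 and 3.66 on CPM, but 2.03 and 3.44 after TMM scaling. At equal depth the mean share of cells with a UMI was 0.562% against 0.263% in the baboon and 2.20% against 0.164% in the rhesus monkey. The size of the BCL2L11 difference in the baboon thus depends on scaling and depth. BID was at 12.3, 9.73 and 21.7 CPM in germ-like baboon cells and at 0.710, 0.283 and 2.17 CPM in Sertoli-like ones, and at 14.2, 34.9 and 4.55 CPM against 6.56, 4.33 and 6.83 CPM in the rhesus libraries. The 3 baboon libraries and 2 of the 3 rhesus libraries had more BID in germ-like cells, and library 2B had less. Germ-like BID rests on 8, 3 and 22 UMIs in libraries 1A, 1B and baboon 2. In libraries rhesus 1, 2A and 2B it rests on 14, 9 and 1 UMIs, and 1 cell of library 2A held 5 of the 9.

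Sertoli-like cells had the lowest BID of the 4 large classes in both species. Stroma-like cells held 5.95, 6.14 and 9.96 CPM in the baboon libraries and 12.1, 29.4 and 18.3 CPM in the rhesus libraries. This is 5.85-fold and 3.00-fold the Sertoli-like mean, and no library overlapped within a species. Free RNA held 2.48, 1.41 and 7.43 CPM of BID in libraries 1A, 1B and baboon 2 and 12.3, 11.4 and 15.9 CPM in rhesus 1, 2A and 2B. By value it was above the Sertoli-like level in every library. In rhesus 1 it was close to the stroma-like and germ-like levels. Macrophage-like cells held 69.0 CPM in baboon 2 and 55.7 and 53.1 CPM in rhesus 1 and 2, above the germ-like level in each of these animals, on 4, 11 and 9 UMIs. BBC3 encodes PUMA, a BH3-only protein that binds the antiapoptotic members, and it was low in the baboon, with 10.8, 6.49 and 11.9 CPM in germ-like, 12.5, 12.7 and 17.5 CPM in Sertoli-like and 8.92, 6.14 and 9.75 CPM in stroma-like cells. Endothelial-like cells of the same libraries held 25.2, 8.63 and 20.3 CPM of BBC3 (19.0 ± 1.87 CPM over the animals), and the 24.9 and 34.5 CPM of lymphoid-like and macrophage-like cells rest on 3 and 2 UMIs. In the rhesus monkey only 4 BBC3 UMIs were counted in all cells, 2 in each animal, so nothing can be said of its distribution there.

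BAX, the effector measured in the rhesus monkey, was at 80.6, 91.5 and 91.4 CPM in Sertoli-like cells of libraries 1, 2A and 2B, at 72.2, 50.4 and 45.5 CPM in germ-like cells and at 31.5, 32.1 and 31.5 CPM in stroma-like cells. By value the 3 classes kept this order in every library, with Sertoli-like cells 2.72-fold above stroma-like cells and 1.43-fold above germ-like cells in the mean of the animals. The germ-like levels rest on 71, 13 and 10 UMIs in libraries 1, 2A and 2B, so the place of germ-like cells in this order is uncertain. Free RNA held 59.9 to 81.6 CPM of BAX.

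MCL1, the short-lived antiapoptotic protein that NOXA neutralises, was low in germ-like cells. They held 77.1, 77.8 and 44.5 CPM in libraries 1A, 1B and baboon 2 and 70.2, 27.1 and 54.6 CPM in rhesus 1, 2A and 2B, and Sertoli-like cells held 283, 281 and 377 CPM and 274, 342 and 395 CPM. The 6 libraries agree in order, and the mean of the animals was 5.41-fold lower in germ-like cells of the baboon (60.9 ± 23.3 against 330 ± 67.3 CPM) and 5.84-fold lower in the rhesus monkey (55.0 ± 21.5 against 321 ± 66.1 CPM). Germ-like MCL1 was also below its free RNA level of 209 to 234 CPM in the baboon and 140 to 160 CPM in the rhesus libraries.

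Immediate early and heat shock genes, which rise when tissue is dissociated, were also lowest in germ-like cells. The summed level of 12 such genes, 11 of them listed for baboons and 10 for rhesus monkeys, was 841 and 1557 CPM in germ-like and 7093 and 16285 CPM in Sertoli-like cells of baboons 1 and 2, and 1133 and 594 CPM against 4703 and 5762 CPM in rhesus 1 and 2. In stroma-like cells MCL1 was at 126 and 343 CPM in baboons 1 and 2 beside 13425 and 37219 CPM of stress genes, and at 312 and 163 CPM in rhesus 1 and 2 beside 17314 and 9573 CPM. The animal with more stress RNA had more stroma-like and Sertoli-like MCL1 in both species. Germ-like MCL1 was at 77.4 and 44.5 CPM in baboons 1 and 2 and at 70.2 and 39.8 CPM in rhesus 1 and 2. In germ-like cells the animal with more stress RNA thus had less MCL1 in the baboon and more in the rhesus monkey. Stroma-like cells of baboon 1, baboon 2 and rhesus 2 also had more stress RNA and less MCL1 than their Sertoli-like cells. The part of this response in the MCL1 levels was not tested.

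**Figure D3:**
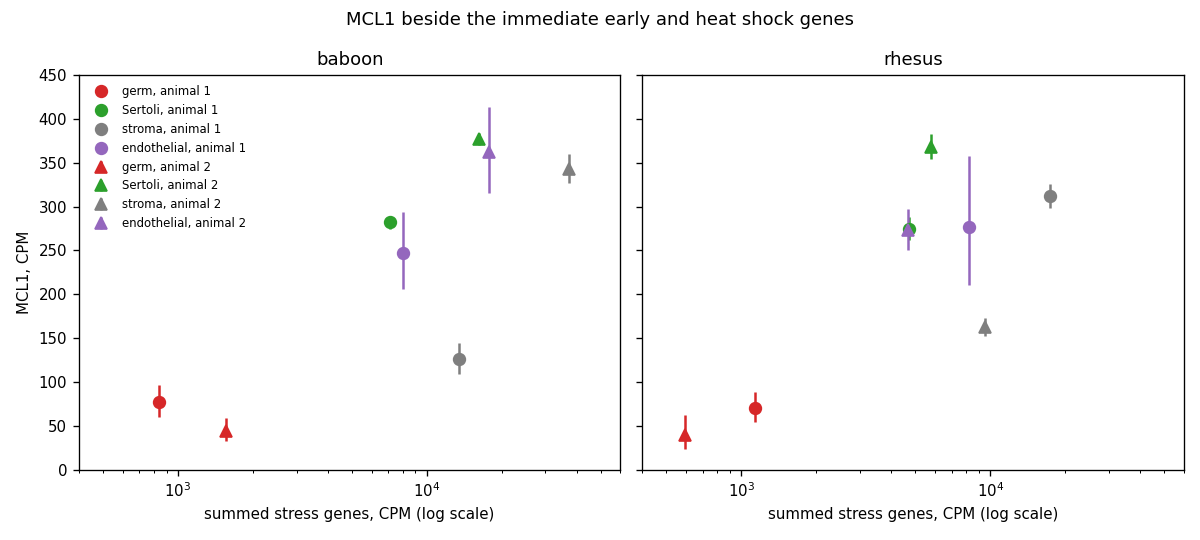
MCL1 (CPM, linear axis from 0, with exact Poisson intervals) against the summed CPM of immediate early and heat shock genes (log scale) in 4 classes, 1 point per animal. Germ-like cells lie lowest on both axes in both species, with MCL1 between 39.8 and 77.4 CPM.

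BCL2L1 encodes BCL-XL, an antiapoptotic protein that holds BAX and BAK1. Germ-like cells held 98.8, 58.4 and 65.2 CPM in the baboon libraries and 35.6, 34.9 and 50.04 CPM in the rhesus libraries, against 49.8, 52.8 and 33.6 CPM and 24.1, 26.3 and 30.9 CPM in Sertoli-like cells. All 6 libraries had more in germ-like cells, by 1.79-fold and 1.47-fold in the mean of the animals. Libraries 1B, 2A and 2B rest on 18, 9 and 11 germ-like UMIs. The log2 difference was 0.84 (baboon) and 0.56 (rhesus monkey) on CPM, but 0.25 and 0.37 after TMM scaling. The size of the BCL2L1 difference thus depends on the scaling, most of all in the baboon. BCL2, the founding antiapoptotic member, was at 21.6, 22.7 and 54.4 CPM in germ-like, 79.9, 74.1 and 81.5 CPM in Sertoli-like and 100.1, 104 and 142 CPM in stroma-like baboon cells. The baboon order of stroma-like, Sertoli-like, germ-like held in each library. In the rhesus monkey germ-like cells held 10.2, 7.75 and 4.55 CPM and Sertoli-like cells 2.95, 14.4 and 12.2 CPM. By value the orders of rhesus 1 and rhesus 2 were opposite. These germ-like levels rest on 10, 2 and 1 UMIs in libraries 1, 2A and 2B, so the order in rhesus 2 is uncertain.

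**Figure D4:**
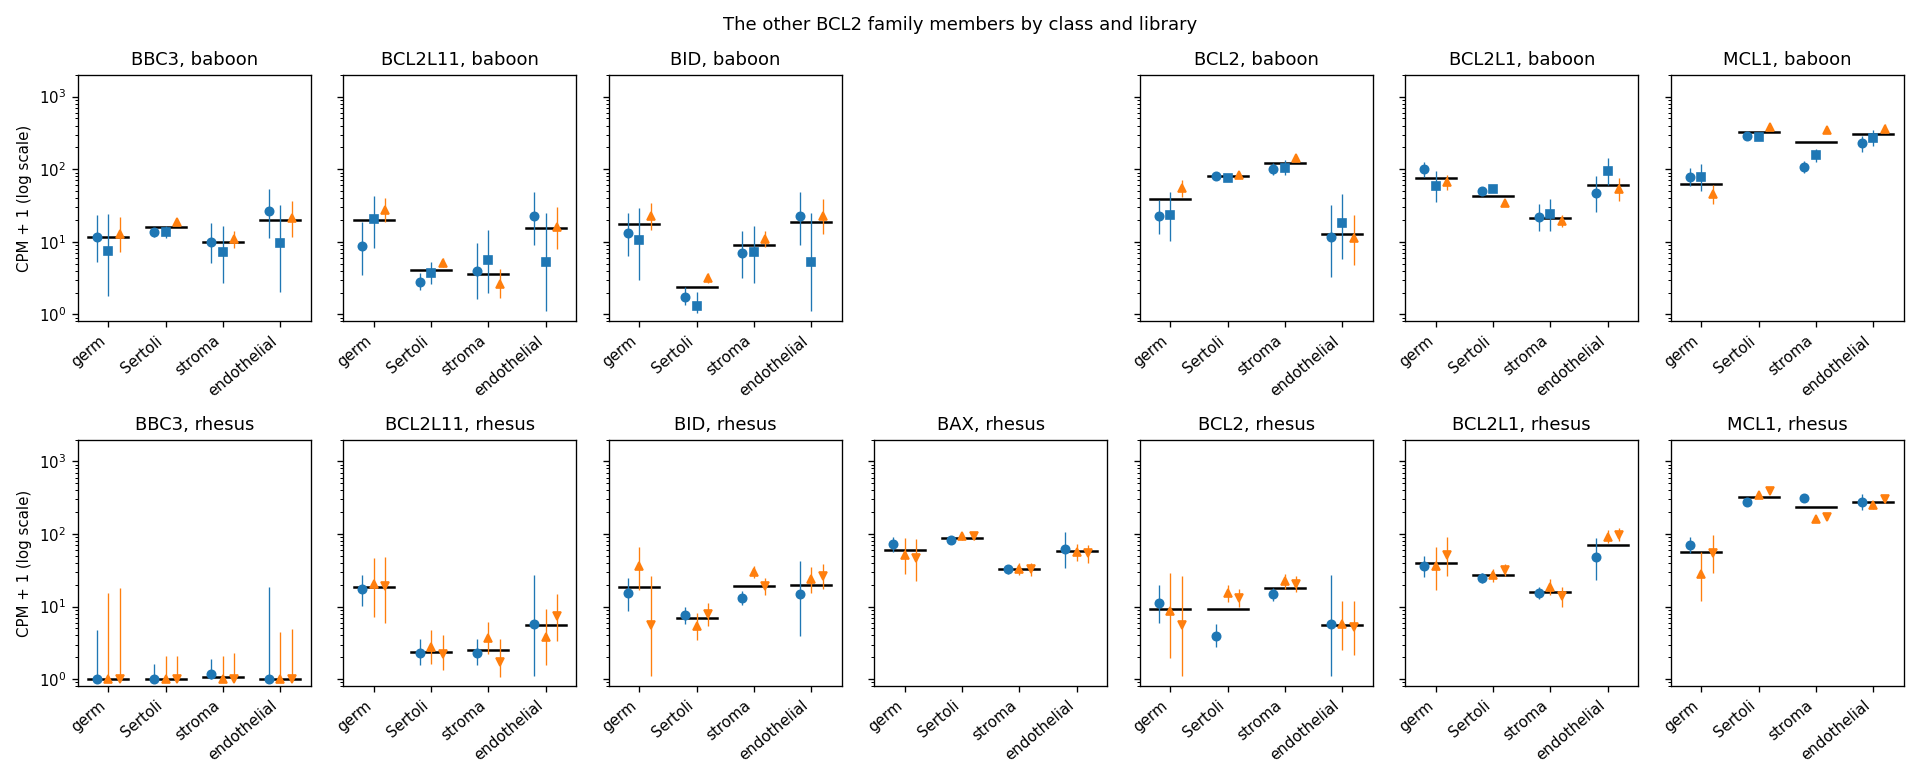
Level of the other 7 members (CPM + 1, log scale) in germ-like, Sertoli-like, stroma-like and endothelial-like cells, 1 point per library with its exact Poisson interval (circle and square for animal 1, triangles for animal 2) and a bar for the mean of 2 animals. BCL2L11 is higher and MCL1 lower in germ-like than in Sertoli-like cells of all 6 libraries, and BCL2 is low in endothelial-like cells.

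Endothelial-like and stroma-like cells were compared by a test, because no member was named for its level in these 2 classes. The members were still chosen with earlier results of these data known, so the p values do not come from an independent choice of genes. UMI sums of each animal and class were fitted with edgeR's quasi-likelihood test over all genes, with Benjamini-Hochberg adjustment and n = 2 animals. At an adjusted p under 0.05, endothelial-like cells of the baboon were higher in 11.0% and lower in 8.37% of 9702 genes, and those of the rhesus monkey higher in 5.28% and lower in 3.16% of 10425 genes. Of the 9 members listed in each species, 6 and 7 passed the filter on low counts, which asks for 8.89 CPM (baboon) or 2.46 CPM (rhesus monkey) in at least 2 sums. BCL2L11 in both species and PMAIP1 in the rhesus monkey passed it through their endothelial-like sums alone, so they had to differ, and their values are given as a description with no call.

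BCL2L1 rose in both species. Endothelial-like cells held 46.7, 94.98 and 52.4 CPM in libraries 1A, 1B and baboon 2 and 47.0, 91.2 and 97.3 CPM in rhesus 1, 2A and 2B, and stroma-like cells 20.8, 23.0 and 18.5 CPM and 14.4, 17.7 and 12.9 CPM. No library overlapped, and by edgeR the log2 fold change was 1.56 ± 0.37 (SE, adjusted p = 0.029) in the baboon and 2.25 ± 0.46 (adjusted p = 0.024) in the rhesus monkey. BCL2 went the other way, at 10.8, 17.3 and 10.1 CPM in endothelial-like baboon cells and 4.70, 4.75 and 4.23 CPM in rhesus ones, against 100.1, 104 and 142 CPM and 13.9, 21.3 and 19.7 CPM in stroma-like cells. It fell by 3.40 ± 0.39 (log2, edgeR adjusted p = 0.0021) in the baboon. The rhesus value was -1.97 ± 0.62 with an edgeR adjusted p of 0.10, and it was called in 2 of 11 alternatives. These were the animal as a block (edgeR adjusted p = 0.0054) and libraries of 1 animal counted as separate samples (edgeR adjusted p = 0.0043). DESeq2 gave an adjusted p of 0.28 for it. Endothelial-like BCL2 of the rhesus monkeys rests on 10 UMIs, 1 of them in rhesus 1.

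BCL2L11 had a log2 fold change of 2.55 ± 0.64 (baboon) and 1.47 ± 0.81 (rhesus monkey), on 16 and 10 endothelial-like UMIs. PMAIP1 of the rhesus monkey was at 18.8, 15.2 and 10.6 CPM in endothelial-like cells of libraries 1, 2A and 2B and at 0.980, 0 and 0.716 CPM in stroma-like cells, a log2 fold change of 4.33 ± 0.82 on 30 and 8 UMIs. In the baboon PMAIP1 did not pass the filter, with 0, 4.32 and 13.5 CPM in endothelial-like and 0, 0 and 0.406 CPM in stroma-like cells. PMAIP1 was also high in blood-cell classes, whose summed markers in the endothelial-like cells of rhesus 1 and 2 were at 65.7 and 19.0 CPM (macrophage) and 4.70 and 6.01 CPM (lymphoid), against 15314 and 32600 CPM of macrophage markers in macrophage-like cells; their part in the endothelial-like PMAIP1 level was not tested.

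The remaining members did not pass the test between these classes. MCL1 had log2 fold changes of 0.33 ± 0.46 and 0.09 ± 0.43 in the baboon and the rhesus monkey, BID 1.07 ± 0.51 and 0.15 ± 0.53, BBC3 1.04 ± 0.45 in the baboon and BAX 0.75 ± 0.38 in the rhesus monkey, with edgeR adjusted p values of 0.16 to 0.94. BIK in both species and HRK in the baboon did not pass the filter. BCL2L1 of the baboon lost its call without library 1B (edgeR adjusted p = 0.062) and at 2000 UMIs (0.085). BCL2 of the baboon and BCL2L1 of the rhesus monkey kept their calls under all 11 alternatives run.

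**Figure D5:**
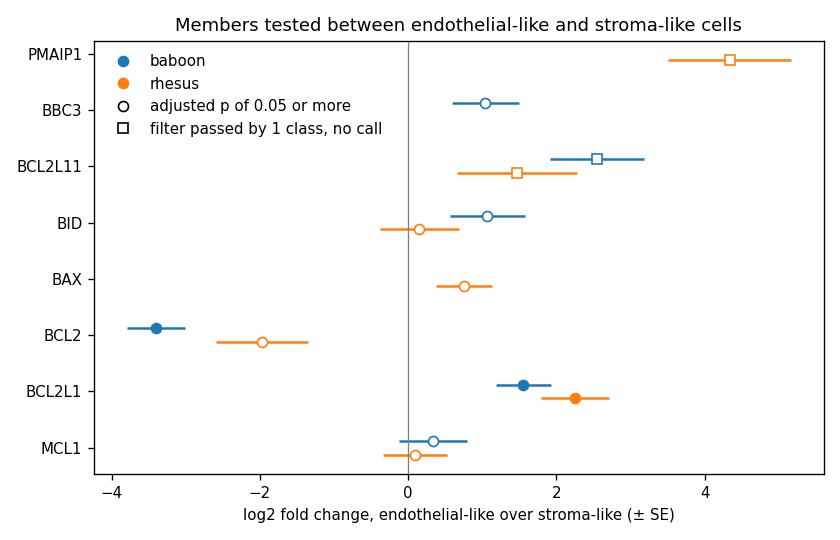
log2 fold change (± SE, edgeR, n = 2 animals) of the members that passed the filter, endothelial-like over stroma-like cells; filled circles have an adjusted p under 0.05, and open squares mark BCL2L11 in both species and PMAIP1 in the rhesus monkey, which passed the filter through endothelial-like sums alone and get no call. BCL2L1 lies above 0 and BCL2 below 0 in both species, and MCL1 lies within 1 SE of 0 in both.

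The wider pathway was read from a list of 38 genes, of which 34 are listed in each species. Between germ-like and Sertoli-like cells 5 of 32 tested genes rose and 10 fell in the baboon, where 21.4% of all genes were higher and 22.1% lower in germ-like cells, and 3 of 26 rose and 6 fell in the rhesus monkey, where these shares were 19.1% and 17.6%. With the animal as a block 7 rose and 12 fell in the baboon, beside 27.6% and 32.2% of all genes, and 3 rose and 8 fell in the rhesus monkey, beside 22.7% and 22.1%. Without the block the median log2 fold changes were -0.55 and -0.19, against -0.17 and -0.06 over all genes. Of the genes called, 2 rose in both species, of 5 baboon and 3 rhesus genes that rose, and 5 fell in both, of 10 and 6 that fell. Only 24 pathway genes were tested in both species. The same overlap was not counted over all genes, so nothing about this pathway is read from it.

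BNIP3, a BH3-like protein of mitophagy, rose by 2.73 ± 0.30 and 2.32 ± 0.47 in germ-like cells of the baboon and the rhesus monkey (log2, edgeR adjusted p = 0.00096 and 0.0073), and VDAC3, a channel of the outer mitochondrial membrane, by 0.81 and 0.79. BAD, the BH3-only protein that links growth factor signals to BCL2L1, fell by 2.44 ± 0.36 and 1.58 ± 0.29 (edgeR adjusted p = 0.0024 and 0.0045), and BAK1, the partner effector of BAX, fell by 2.16 ± 0.55 and 2.40 ± 0.51 (0.019 and 0.0085). VDAC1 fell by 1.10 ± 0.23 and 1.44 ± 0.29, and the stress-response genes GADD45A and TP53INP1 by 1.74 and 1.51 in the baboon and by 2.23 and 1.80 in the rhesus monkey. In the baboon DIABLO, which frees caspases from their inhibitors, rose by 1.49 ± 0.23 (edgeR adjusted p = 0.0029), while APAF1 and XIAP of the baboon had -1.49 ± 0.88 and -0.89 ± 0.67 (0.21 and 0.32).

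Sertoli-like cells were set against stroma-like cells in the same way, and 3 of 32 pathway genes rose and 1 fell in the baboon, where Sertoli-like cells were higher in 8.38% and lower in 11.3% of all genes tested, and 3 of 28 rose and 0 fell in the rhesus monkey, where the shares were 6.94% and 7.20%. With the animal as a block these counts became 6 and 5 for the baboon, beside 23.6% and 21.7% of all genes, and 7 and 1 for the rhesus monkey, beside 18.0% and 16.9%. The 7 include BIRC3, which passed the filter through its Sertoli-like sums alone and so had to differ. AIFM1, a mitochondrial death flavoprotein, rose by 1.18 ± 0.29 and 1.497 ± 0.29 and TP53INP1 by 1.65 ± 0.38 and 2.21 ± 0.46 (log2, edgeR adjusted p = 0.032 to 0.040 over both genes and species). GADD45A rose in the baboon by 1.06 ± 0.25, and BCL2L13 rose in the rhesus monkey by 1.35 ± 0.31. BAK1, BAD, APAF1 and XIAP were not called in either species, with values from -1.43 (APAF1, baboon) to 0.45 (BAD, rhesus monkey), but with the block APAF1 and XIAP of the baboon fell (edgeR adjusted p = 0.0039 and 0.0041).

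Between endothelial-like and stroma-like cells 3 of 27 pathway genes rose and 0 fell in the baboon, beside 11.0% and 8.37% of all genes, so the share that rose was near that of all genes. In the rhesus monkey, where these shares were 5.28% and 3.16%, edgeR called 0 of 27, 3 were higher and 0 lower at an unadjusted p under 0.05, and DESeq2 called 1. With the animal as a block 6 rose and 3 fell in the baboon, beside 20.8% and 19.7% of all genes, and 3 rose and 0 fell in the rhesus monkey, beside 12.4% and 11.4%. Without the block the baboon genes were GADD45A (2.07 ± 0.34, edgeR adjusted p = 0.0073), BAK1 (1.498 ± 0.39, 0.039) and BIRC3, an inhibitor of apoptosis induced by NF-kappaB. BIRC3 had 3.95 ± 0.64 but passed the filter through its endothelial-like sums alone and so had to differ. The baboon genes that rose with the block include BIRC3 and also CDKN1A, which passed the filter in the same way. BAK1 of the rhesus monkey had 1.13 ± 0.47 with an edgeR adjusted p of 0.21, and 0.013 with the block. BAD, APAF1 and XIAP had values from -0.87 (XIAP, baboon) to 0.15 (APAF1, rhesus monkey) and edgeR adjusted p values of 0.46 to 0.97.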

How the data were processed

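RNA of single testis cells from 2 baboons and 2 rhesus monkeys was sequenced as 6 libraries. The deposited values are raw UMI counts for each gene and barcode, which the authors made with Cell Ranger (3.1.0, per the labels), aligned to Panubis1.0 or Mmul_10, without normalization or cell calling. The lists of markers and pathway genes, and the members, were chosen with earlier results of these data known, and the rule for classes was set after the counts had been seen.

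Barcodes with at least 1000 UMIs and 200 genes were kept. A cell belonged to a class where at least 3 markers of its list were found and their UMIs exceeded the Poisson expectation from near-empty barcodes (10 to 100 UMIs) at p under 0.001, taking 0.25 of the cell's UMIs as free RNA for the abundant Sertoli list and 1 for the others. Cells of 2 lists, which would include doublets, were left out, and no doublet caller was run. Cells in no class, 37.8% of baboon and 38.6% of rhesus cells, entered no comparison. CPM is a class's UMIs of a gene per 1000000 of its UMIs. Sums per animal and class with at least 10 cells were tested with edgeR 4.0.16 (quasi-likelihood, TMM, filterByExpr) in R 4.3.3, and by DESeq2 1.42.0 as an alternative. The SE of a log2 fold change is its absolute value divided by the square root of edgeR's F statistic, and is not an output of edgeR. The test was first tried on simulated counts, with independent sums and changes planted in well-counted genes alone. That trial thus says nothing of paired sums or rare genes. Named genes were all 10 members in every class, and, of the pathway list, up to 6 with the smallest adjusted p per comparison plus a few named in any case, among them BAK1, BAD, APAF1 and XIAP; some of the genes this rule names are counted but not reported here by name. Class sums of 1 animal are paired by that animal, and their deviations from the class means correlated at 0.21 to 0.60. Where a symbol had several entries, the one with more UMIs was used.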

Additional observations from a re-analysis of the deposited data

How the results depend on the processing

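The members' log2 ratios of CPM between germ-like and Sertoli-like cells (for HRK, between Sertoli-like and stroma-like cells) kept their sign under the alternatives run on these ratios that gave a value, apart from BCL2 in the rhesus monkey. BIK of the baboon, 0.23 on CPM, was -0.35 with TMM and -0.25 with RLE scaling. BCL2 in the rhesus monkey was 0.02 and became -0.045 with cells of 2 lists kept, -0.15 after thinning to 1000 UMIs and -1.08 to 1.78 when 1 animal was left out. With free RNA subtracted, MCL1 went from -2.44 to -4.51 in the baboon and from -2.55 to -3.97 in the rhesus monkey, BID from 3.61 to 6.46 and from 1.54 to 2.35, PMAIP1 of the rhesus monkey from 7.58 to 11.4 and BCL2L11 of the baboon from 2.61 to 3.2; after thinning the last was 1.01, and BCL2L1 of the rhesus monkey went from 0.56 to 1.79. Of the counts of genes called, those for germ-like against Sertoli-like cells stayed within 1.5 times. Between Sertoli-like and stroma-like cells of the baboon, 2879 genes called became 4543 without a filter, 6617 with the animal as a replicate block, 4750 with libraries as samples and 1372 at 2000 UMIs, where 330 were higher and 1042 lower against 1224 and 1655; in the rhesus monkey 1583 became 3906 with the block and 4000 with libraries as samples. Between endothelial-like and stroma-like cells, 1877 became 3934 with the block and 1201 at 2000 UMIs in the baboon, and 879 became 1668 without a filter, 2478 with the block and 2633 with libraries as samples in the rhesus monkey. In 5 settings a member had no UMI left in a class and no ratio could be given. The block changed the call of BCL2 in the rhesus monkey and of no other member. The Sertoli-like rule with all UMIs taken as free RNA, and the unscaled and RLE fits of the members, were added after seeing the data; without scaling the median gene of the baboon germ-like comparison stood at 0.42 against -0.17 with TMM. Leaving out 1 of 2 animals leaves no spread to test, and rare genes such as BID in library 2B or BIK in library 2A are limited by depth.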
